A study of Mus musculus with 6 samples.

Results

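The epidermal differentiation complex is a cluster of genes on mouse chromosome 3 whose products build the cornified cell envelope, the cross-linked protein shell that replaces the membrane of the outermost keratinocytes. Its members were taken by gene symbol: every numbered Lce, Sprr and S100a gene, together with Lor, Flg, Flg2, Ivl, Hrnr, Rptn, Tchh, Tchhl1, Crnn and Crct1. This gave 57 of the 19131 genes in the deposited files, of which 47 had 10 or more counts in 3 or more libraries. These 47 comprised 16 of 20 Lce genes, 11 of 14 Sprr genes, 11 of 13 S100a genes, all 3 envelope precursor genes (Lor, Ivl and Crct1) and 6 of 7 genes of the fused S100 type (Flg, Flg2, Hrnr, Rptn, Tchh and Crnn, without Tchhl1). All 57 lie between bases 90511034 and 93564645 of chromosome 3 (GRCm38.p6). RNA came from skin of embryos at embryonic day 17.5 with the strain background C57BL/6N, in 3 libraries labelled Tie1 knockout (Tie1ECDKO in the titles) and 3 labelled control (Tie1ECDWT). TIE1 is a receptor-like tyrosine kinase of endothelial cells, and by its title the series concerns how endothelial TIE1 limits vessel sprouting in vein assembly. What ECD stands for, the cells in which Tie1 was deleted, the body site and whether libraries came from separate embryos are not in the labels, so p-values measure only the spread between these samples.

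Keratinocytes of the embryonic epidermis switch the complex on as they leave the basal layer, and the barrier forms shortly before birth. Loricrin, involucrin, the small proline-rich (SPRR) and late cornified envelope (LCE) proteins are substrates that transglutaminases join into the envelope. Filaggrin and its relatives carry an S100 domain fused to long repeats and take part in the granular and cornified layers. The S100A proteins are small calcium-binding proteins, several of which are also made outside the epidermis. In bulk skin, fewer cells of a type and less RNA per cell cannot be told apart.

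Library totals lay between 19826856 and 20591164 estimated counts. Tie1 stood at 4.33, 2.63 and 2.26 CPM (counts scaled to library size) in knockout 1 to 3 and at 58.6, 50.7 and 60 CPM in control 1 to 3, so all 6 libraries matched their labels (log2 ratio -4.20 ± 0.23, edgeR adjusted p = 0.00387). Log2 ratios throughout are knockout over control, and the value after ± is the standard error. Hair follicle genes were low in knockout 1 and control 1. Averaged over 14 genes, their log2 CPM was 0.384, 2.61 and 2.96 across knockout 1 to 3 against 0.772, 2.50 and 3.36 across control 1 to 3. For 9 posterior Hox genes, whose levels follow the body axis, the mean was 2.41, 2.81 and 2.66 against 2.53, 1.78 and 1.40. The part of either pattern in the results below was not tested beyond fits that take each score as a covariate and a fit without knockout 1 and control 1. The 8 basal keratinocyte markers, Krt5 and Krt14 among them, summed to 5944 to 8184 CPM across knockout and 5023 to 8570 CPM across control libraries.

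Promoter sequences are shown for 6 members whose levels set the results: 3 Sprr genes with large log2 ratios, loricrin, and filaggrin and hornerin, whose extreme libraries were opposite. Each is the stretch of 250 bases upstream of the annotated start, read 5′ to 3′ on the gene's strand from RefSeq (GRCm38.p6), with matches to the AP-1 motif TGANTCA or the TATA motif TATAAA in capitals. The windows are chr3:92432332-92432581 on the plus strand for Sprr2k, chr3:92458721-92458970 on the minus strand for Sprr3, chr3:92485882-92486131 on the minus strand for Sprr1a, chr3:92083143-92083392 on the minus strand for Lor, chr3:93273296-93273545 on the plus strand for Flg and chr3:93319499-93319748 on the plus strand for Hrnr.
Sprr2k: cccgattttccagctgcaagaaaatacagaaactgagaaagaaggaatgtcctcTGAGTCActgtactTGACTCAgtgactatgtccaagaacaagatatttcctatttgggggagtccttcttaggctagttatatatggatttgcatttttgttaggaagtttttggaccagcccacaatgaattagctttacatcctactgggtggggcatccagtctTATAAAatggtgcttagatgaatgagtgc
Sprr3: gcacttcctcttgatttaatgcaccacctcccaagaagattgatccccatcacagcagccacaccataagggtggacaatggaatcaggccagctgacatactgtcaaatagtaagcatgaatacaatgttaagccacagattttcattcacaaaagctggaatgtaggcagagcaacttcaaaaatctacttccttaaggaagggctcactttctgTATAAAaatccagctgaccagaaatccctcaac
Sprr1a: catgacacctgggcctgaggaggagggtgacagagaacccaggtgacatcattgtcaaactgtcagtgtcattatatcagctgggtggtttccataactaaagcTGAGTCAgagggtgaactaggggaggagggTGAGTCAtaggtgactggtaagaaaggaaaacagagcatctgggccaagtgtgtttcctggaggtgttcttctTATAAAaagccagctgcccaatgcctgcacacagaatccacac
Lor: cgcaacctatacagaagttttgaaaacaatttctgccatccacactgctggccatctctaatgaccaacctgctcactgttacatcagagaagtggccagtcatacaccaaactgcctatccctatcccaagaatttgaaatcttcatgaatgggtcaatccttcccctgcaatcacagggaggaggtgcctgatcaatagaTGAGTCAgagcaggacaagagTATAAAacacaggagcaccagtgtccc
Flg: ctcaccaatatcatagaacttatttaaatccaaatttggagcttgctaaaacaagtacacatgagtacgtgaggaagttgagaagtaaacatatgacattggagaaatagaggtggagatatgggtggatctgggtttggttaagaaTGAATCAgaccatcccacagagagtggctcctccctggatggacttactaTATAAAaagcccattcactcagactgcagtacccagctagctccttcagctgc
Hrnr: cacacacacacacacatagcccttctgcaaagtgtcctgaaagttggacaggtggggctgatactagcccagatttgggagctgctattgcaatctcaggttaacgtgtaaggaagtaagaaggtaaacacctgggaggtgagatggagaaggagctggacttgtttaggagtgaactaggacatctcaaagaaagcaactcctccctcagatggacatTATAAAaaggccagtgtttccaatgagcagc

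RefSeq promoters were at hand for 52 of the 57 members, and both strands were searched. The AP-1 motif was searched in a loose form with any base at its centre, where the usual FOS and JUN site has C or G. It was found in the window of 17 of 52 members (32.7%), against 6.87% of 27025 promoters of all genes. The motif lay upstream of 9 of 14 Sprr genes, 2 of 2 envelope precursor genes (Lor and Ivl) and 5 of 7 fused S100 type genes. Among Lce genes it lay upstream of 0 of 19 and among S100a genes of 1 of 10. In Sprr2b, Sprr2d, Sprr2e, Sprr2f, Sprr2h, Sprr2i and Sprr2k a match began 193 to 198 bases upstream. These are related copies, with 88% of positions identical between Sprr2d and Sprr2e, so the Sprr count is not one of unrelated promoters. All matches of the fused S100 type genes, Flg among them, and that of Sprr1b read TGAATCA or TGATTCA, with A or T at the centre. Among the printed windows, Sprr1a and Sprr2k each held 2 matches to the loose AP-1 motif, Lor and Flg 1 each, and Sprr3 and Hrnr 0. The TATA motif was found upstream of 10 of 14 Sprr genes (71.4%) and 4 of 19 Lce genes (21.1%), against 13% of all promoters. Of these Lce matches, those of Lce1d and Lce1m began 30 and 29 bases upstream. Those of Lce6a and Lce3e were on the other strand, 218 and 243 bases upstream. Motifs of C/EBP (TTNNGCAA), GRHL (AACNGGTT) and KLF (CCACCC) factors and the GC box (GGGCGG) were also searched. They were found in 11.5%, 3.85%, 28.8% and 5.77% of members, against 9.55%, 1.71%, 27.7% and 32.9% of all promoters. Motif matches describe the letters of a window and not a bound site. The windows of Sprr2a1 and Sprr2a2 were identical at all 250 positions. That of Sprr2a3 holds most of the same stretch, shifted along the window. Identity was counted position by position, which misses shifted copies, so Sprr2a1 and Sprr2a3 scored only 26.4%.

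No member passed the test between genotypes, although the Sprr genes lay higher in the knockout as a family. Of 15035 genes tested with edgeR, 13 were called higher (0.0865%) and 11 lower (0.0732%) at an adjusted p under 0.05, and 0 of the 47 members were among them. DESeq2, which called 1.4% of genes, and limma-voom, which called 0.0998%, also called 0 members. At an unadjusted edgeR p under 0.05 there were 3 members higher, all Sprr genes, and 0 lower, against 4.08% and 3.35% of all genes. The 11 Sprr genes had log2 ratios above 0 without exception, at a median of 1.43, while over all genes the median was 0.0038 and 51.2% were above 0. The 11 are linked genes read in the same libraries, so they do not count as separate observations. Among them Sprr2a2, at 0.32 ± 1.73, turned to -0.20 without knockout 3 and to -0.27 without control 1. The other medians were 0.12 for 16 Lce genes, 0.16 for 11 S100a genes, 0.24 for the 3 envelope precursors and -0.030 for 6 fused S100 type genes. With 1 library left out, the Lce median ran from -0.057 to 0.33, that of the fused S100 type genes from -0.20 to 0.15, that of the S100a genes from 0.13 to 0.32 and that of the envelope precursors from 0.11 to 0.42. The Lce median was below 0 without knockout 1 (-0.038) and without control 3 (-0.057). Whether the families differ from each other was not tested. In 7 members, 4 Sprr and 3 S100a genes, every knockout library lay above every control library, against 7.02% of all genes. The reverse held for 0 members, against 6.78%. The 4 Sprr genes include Sprr2a1, whose level is uncertain apart from the other Sprr2a copies, and the groups overlapped in the sum of these copies. They also include Sprr2i, which was separated by a narrow gap, at 2.11 CPM in knockout 3 against 2.07 CPM in control 1.

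**Figure D1:**
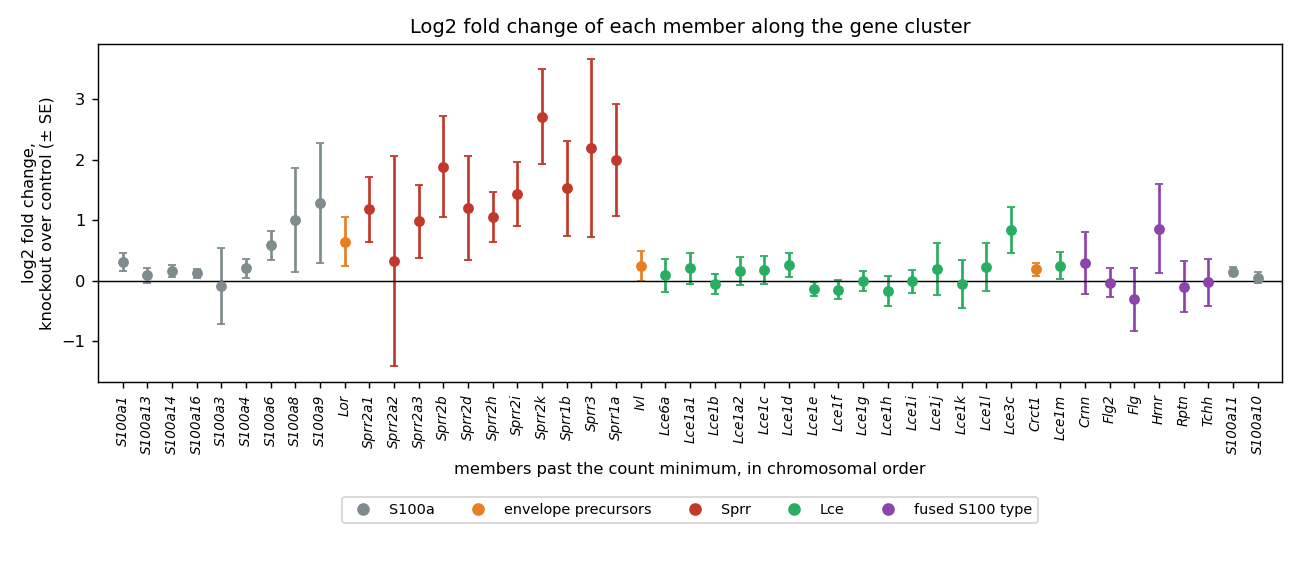
Log2 fold change of knockout over control with its SE (bars) for the 47 members past the count minimum, in chromosomal order and coloured by family. The Sprr genes run from 0.32 to 2.71 and the Lce genes from -0.18 to 0.83.

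Sprr genes encode small proline-rich bridging proteins of the envelope, several of which are raised in stressed or wounded epidermis. The family summed to 862, 376 and 464 CPM in knockout 1 to 3 and to 238, 206 and 161 CPM in control 1 to 3. Every knockout library was thus above every control library in the sum. Seen after the values were known, and not tested, the genes fell into 2 neighbouring blocks on the chromosome. The 6 genes from Sprr2a1 to Sprr2h (starts 92215835 to 92385685) were highest in knockout 3 and lowest in control 1, and the 5 from Sprr2i to Sprr1a (starts 92407991 to 92483954) were highest in knockout 1 and lowest in control 3.

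Sprr1a and Sprr1b, the most abundant of the family per exon length, belong to the latter block. Sprr1a stood at 467, 121 and 87.4 CPM in the knockout series and 107, 42.7 and 19.6 CPM in the control series. Knockout 1 was far above all others, and control 1 lay within the knockout range. The group means were 225 ± 210.3 and 56.6 ± 45.5 CPM (SD, n = 3 each), and the log2 ratio of 1.99 ± 0.93 (edgeR adjusted p = 0.705) was 0.88 without knockout 1 and 2.85 without control 1. Sprr1b overlapped in the same way, at 247, 66.9 and 63.0 against 73.5, 40.1 and 17.5 CPM (log2 ratio 1.52 ± 0.78, edgeR adjusted p = 0.728), and its log2 ratio was 0.57 without knockout 1. Sprr3, named after its values were seen, lies between them and spread most of the 46 members past the count minimum with a count in every library, by a ratio of 129 from highest to lowest. It stood at 38.1, 4.76 and 2.26 against 8.09, 1.49 and 0.296 CPM (log2 ratio 2.19 ± 1.47, edgeR adjusted p = 0.789), and its log2 ratio was 0.091 without knockout 1. Control 3, the lowest library, held only 6 counts of Sprr3.

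Sprr2k had the largest log2 ratio of the 47 members. It stood at 14.5, 6.50 and 5.35 CPM in the knockout series and 2.71, 1.09 and 0.197 CPM in the control series, so the groups did not overlap. The control libraries held only 55, 22 and 4 counts. The log2 ratio was 2.71 ± 0.78 (edgeR adjusted p = 0.452) and ran from 2.15 to 3.76 with any 1 library left out. Its neighbour Sprr2i stood at 4.73, 2.77 and 2.11 against 2.07, 0.967 and 0.514 CPM, the lowest knockout library being just above the highest control library (log2 ratio 1.43 ± 0.53, edgeR adjusted p = 0.590). Sprr2h was even across the knockout, at 31.3, 30.5 and 32.3 CPM, and uneven across the control, at 6.27, 17.9 and 21.4 CPM, again without overlap (log2 ratio 1.05 ± 0.41, edgeR adjusted p = 0.650), and its log2 ratio was 0.68 without control 1. Sprr2k, Sprr2i and Sprr2h were the members with an unadjusted edgeR p under 0.05, at 0.0132, 0.0312 and 0.0443.

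Sprr2d and Sprr2b were lowest in knockout 1 within the knockout and in control 1 within the control, the reverse of Sprr1a. Sprr2d stood at 8.88, 47.5 and 48.3 CPM against 4.64, 13.5 and 27.3 CPM, so the groups overlapped through knockout 1 (log2 ratio 1.2 ± 0.86, edgeR adjusted p = 0.804), and its log2 ratio was 0.77 without control 1 and 1.94 without control 3. Sprr2b was scarce, at 0.364, 1.62 and 2.60 against 0.115, 0.357 and 0.769 CPM, where 3 counts correspond to 0.147 to 0.155 CPM (log2 ratio 1.89 ± 0.84, edgeR adjusted p = 0.685). The 3 Sprr2a copies are uncertain one by one, since 92.5% of the 50-base windows of Sprr2a1 transcripts also occur in Sprr2a2. Sprr2a2 was listed at 0.00928 CPM in knockout 1 and 0 in control 1, and at 30.2 to 43.7 CPM in the other 4 libraries (log2 ratio 0.32 ± 1.73, edgeR adjusted p = 0.978). Summed over Sprr2a1, Sprr2a2 and Sprr2a3 the level was 49.7, 92.9 and 218 CPM against 33.4, 87.6 and 72.5 CPM, with knockout 3 far above the rest and overlap between the groups. The log2 ratio of Sprr2a1 alone was 1.18 ± 0.53 (edgeR adjusted p = 0.689) and 0.33 without knockout 3.

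**Figure D2:**
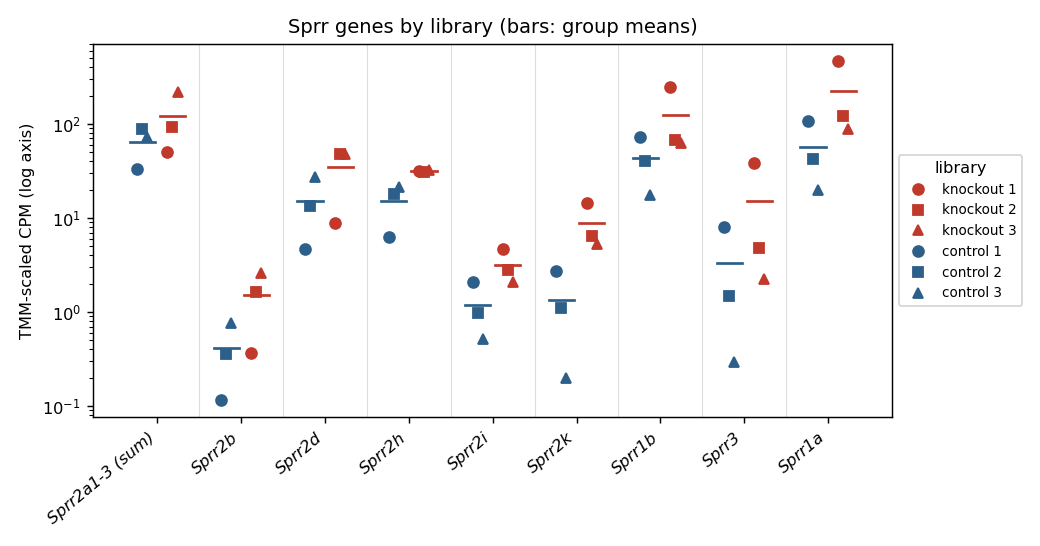
TMM-scaled CPM of Sprr genes on a log axis, with a point for each library and a bar at each group mean; the 3 similar Sprr2a copies are summed. Sprr2h, Sprr2i and Sprr2k show no overlap between the groups, Sprr1a, Sprr1b and Sprr3 are highest in knockout 1, and Sprr2b and Sprr2d are lowest in knockout 1 and control 1 within their groups.

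Calls in this family depended on the fit. With the replicate number as a block, Sprr3 and Sprr1a were called, against 0.219% of genes higher and 0.126% lower. Without knockout 1 alone or control 1 alone, 0 members were called. The hair follicle score was lowest in knockout 1 and control 1, so a fit with it cannot tell hair follicle content from other traits of these libraries. With the hair follicle score as a covariate, 6 of the 11 Sprr genes were called higher and no other member was called. In that fit 0.446% of all genes were called higher and 0.319% lower. Sprr1a had a log2 ratio of 1.72 ± 0.098 there (edgeR adjusted p = 0.000745) and Sprr2d one of 1.42 ± 0.11 (edgeR adjusted p = 0.00473). The others were Sprr3, Sprr2k, Sprr2b and Sprr1b, at 1.76, 2.69, 2.13 and 1.25, with edgeR adjusted p = 0.0183, 0.0272, 0.0291 and 0.0331. Without both knockout 1 and control 1, Sprr2h was the 1 member called (log2 ratio 0.68 ± 0.11, edgeR adjusted p = 0.0293), against 0.465% of genes called higher and 0.458% lower. With the posterior Hox score 0 members were called, against 0.0133% of genes higher and 0.02% lower. The Sprr median was 1.38 with the hair follicle score, 1.36 without both knockout 1 and control 1 and 1.71 with the posterior Hox score.

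Loricrin, the main mass of the mature envelope, was the most abundant member per exon length, at 1760 CPM per kilobase in the knockout and 1126 CPM per kilobase in the control. Lor stood at 5058, 2464 and 1872 CPM in the knockout series and 2540, 1942 and 1529 CPM in the control series. Only knockout 1 lay above the control range (log2 ratio 0.64 ± 0.40, edgeR adjusted p = 0.766), and without it the log2 ratio was 0.11. Ivl, which encodes involucrin, an early scaffold of the envelope, stood at 381, 225 and 198 against 243, 213 and 223 CPM (log2 ratio 0.24 ± 0.24, edgeR adjusted p = 0.852), and its direction turned to -0.100 without knockout 1. Crct1, a cysteine-rich gene of the complex, was more even, at 505, 557 and 446 against 419, 412 and 494 CPM (log2 ratio 0.19 ± 0.11, edgeR adjusted p = 0.747), with a log2 ratio of 0.10 without knockout 2.

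Flg and Hrnr, which encode filaggrin and hornerin and are neighbours among the members, ranked the libraries differently. Hrnr stood at 7837, 2395 and 1603 CPM in the knockout series and 3670, 1750 and 1108 CPM in the control series. Flg stood at 504, 2004 and 2024 against 1450, 2194 and 1980 CPM. Knockout 1, followed by control 1, was thus the highest library for Hrnr and the lowest for Flg, and the ratio of Hrnr to Flg CPM was 15.6, 1.2 and 0.792 across knockout 1 to 3 against 2.53, 0.798 and 0.559 across control 1 to 3. Neither difference between genotypes exceeded that spread, at 0.86 ± 0.73 and -0.31 ± 0.52 on the log2 scale (edgeR adjusted p = 0.830 and 0.920). Both turned direction without knockout 1, Hrnr to -0.12 and Flg to 0.10.

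The remaining fused S100 type genes had group means closer together than their replicate spread. Flg2, the gene of filaggrin-2, averaged 282 ± 82.2 CPM in the knockout against 289 ± 49.4 CPM in the control (SD, n = 3 each, log2 ratio -0.035 ± 0.24, edgeR adjusted p = 0.983). Tchh, which encodes trichohyalin of the hair follicle inner root sheath, stood at 17.9, 14.9 and 25.3 against 10.9, 18.1 and 30.1 CPM (log2 ratio -0.025 ± 0.39, edgeR adjusted p = 0.995). Rptn and Crnn, the genes of repetin and cornulin, were scarce, averaging 2.34 ± 1.0 against 2.50 ± 1.02 CPM and 0.764 ± 0.276 against 0.626 ± 0.371 CPM, with log2 ratios of -0.098 ± 0.42 and 0.29 ± 0.51 (edgeR adjusted p = 0.971 and 0.924).

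**Figure D3:**
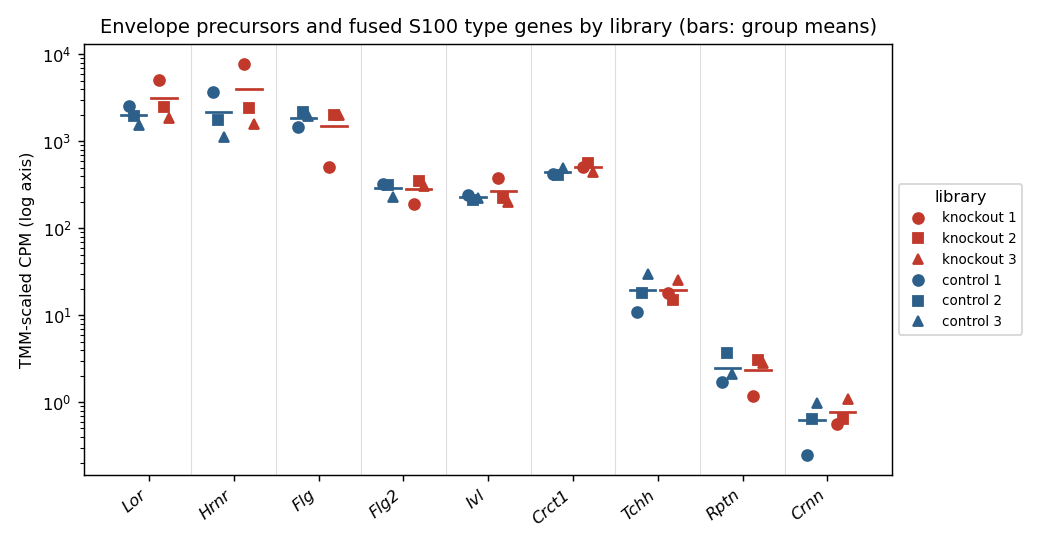
TMM-scaled CPM of envelope precursor and fused S100 type genes on a log axis, with a point for each library and a bar at each group mean. Knockout 1 is the highest library for Lor, Hrnr and Ivl and the lowest for Flg, Flg2 and Rptn, and the groups overlap for every gene shown.

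The Lce genes encode small cysteine-rich proteins that enter the envelope late. They summed to 3592, 3142 and 2284 CPM in the knockout series and 3387, 2444 and 2322 CPM in the control series, a ratio of means of 1.11 with overlap. Of the 16 genes past the count minimum 9 had a log2 ratio above 0 and 7 below, and in 0 of them did the groups separate. Lce1m, the most abundant per exon length, averaged 792 ± 217 CPM in the knockout against 666 ± 118 CPM in the control (SD, n = 3 each, log2 ratio 0.25 ± 0.22, edgeR adjusted p = 0.834), and its log2 ratio was 0.046 without knockout 1. Lce1a1, Lce1c, Lce1d and Lce1a2 stood at 0.20 ± 0.25, 0.17 ± 0.23, 0.25 ± 0.20 and 0.16 ± 0.23 on the log2 scale (edgeR adjusted p = 0.889, 0.894, 0.821 and 0.907). Lce1e and Lce1f stood on the other side of 0, at -0.14 ± 0.12 and -0.15 ± 0.16 (edgeR adjusted p = 0.830 and 0.862). With 1 library left out, Lce1c ran from 0.018 to 0.39, Lce1d from 0.10 to 0.42, Lce1e from -0.25 to -0.040 and Lce1f from -0.29 to -0.044, with Lce1c and Lce1d lowest without knockout 1 and Lce1e and Lce1f nearest 0 without control 1. Knockout 1 was the highest library for 8 and control 1 for 7 of the 16 genes, where they were the highest for 21.0% and 20.2% of all genes tested. With the posterior Hox score as a covariate the family median turned from 0.12 to -0.27.

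Within the family the Lce3 genes, which are known to be induced when skin is injured, were far scarcer than the Lce1 genes. They summed to 28.7, 5.65 and 6.72 CPM in the knockout series and 3.95, 4.66 and 6.27 CPM in the control series, against 2215 to 3449 CPM for the Lce1 genes over all 6 libraries. Knockout 1 stood apart from the other 5. Lce3c stood at 10.9, 5.21 and 5.74 against 2.65, 3.98 and 5.64 CPM, with overlap (log2 ratio 0.83 ± 0.38, edgeR adjusted p = 0.685), and at 0.42 without knockout 1. Lce3f, named after its values were seen, had 311 counts in knockout 1 and 1.70 to 13.5 counts in the other 5 libraries, so it missed the count minimum. Each Lce1 gene but Lce1m, which shared none, shared the most 50-base windows with another Lce1 gene, and each Lce3 gene with another Lce3 gene. Of the windows of Lce3f, 41.1% also occur in Lce3e. Single genes of these 2 groups other than Lce1m are therefore less certain than the sums.

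Of the 5 family sums that of the S100a genes varied least between libraries. It was 1589, 1582 and 1434 CPM in the knockout series and 1392, 1399 and 1339 CPM in the control series, every knockout library lying above every control library by a small margin. S100a11, the most abundant S100a gene per exon length, stood at 599, 556 and 544 against 505, 539 and 489 CPM, without overlap (log2 ratio 0.15 ± 0.075, edgeR adjusted p = 0.706). S100a14, S100a16 and S100a10, the last of which encodes a partner of annexin A2, stood at 0.16 ± 0.10, 0.12 ± 0.080 and 0.046 ± 0.090 on the log2 scale (edgeR adjusted p = 0.754, 0.780 and 0.929). Without knockout 1, S100a14 and S100a16 stood at 0.068 and 0.042, and S100a10 turned to -0.032 without knockout 2. S100a6, the gene of calcyclin, was separated and highest in knockout 2, at 81.4, 141 and 76.2 against 70.2, 59.8 and 69.3 CPM (log2 ratio 0.58 ± 0.24, edgeR adjusted p = 0.671), and at 0.24 without knockout 2. S100a1, known from muscle, was separated by a narrow gap, at 11.9, 16.2 and 11.9 against 11.3, 11.3 and 9.68 CPM (log2 ratio 0.31 ± 0.15, edgeR adjusted p = 0.706), and at 0.14 without knockout 2. The 9 skeletal muscle markers summed to 8388, 9754 and 13673 CPM in the knockout series and 10709, 10378 and 11246 CPM in the control series, and their part in the S100a1 values was not tested.

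S100a8 and S100a9, both named after their values were seen, encode the paired subunits of calprotectin, which neutrophils and stressed keratinocytes make. S100a9 stood at 0.876, 1.93 and 12.8 CPM in the knockout series and 3.16, 1.68 and 1.53 CPM in the control series. S100a8 stood at 0.515, 0.992 and 5.30 against 1.58, 0.842 and 0.987 CPM. Knockout 3 was the highest library for both, and without it the log2 ratios turned from 1.29 ± 0.99 to -0.59 and from 1.0 ± 0.86 to -0.58 (edgeR adjusted p = 0.816 and 0.830 with all libraries). The 9 neutrophil markers summed to 10.4, 11.3 and 12.1 CPM in the knockout series and 14.5, 13 and 12 CPM in the control series, and their mean log2 CPM was -1.53, -1.01 and -0.883 against -0.291, -0.888 and -0.719. In knockout 3, Cxcr2 and Csf3r made up most of the sum, at 5.13 and 4.91 CPM, Ngp, Ltf, Retnlg and Camp stood at 0.245 to 0.687 CPM, Ly6g at 0.0491 CPM, and Elane and Mpo at 0. Their part in the S100a8 and S100a9 values was not tested. Knockout 3 was also the highest library for the stress keratin genes Krt6b and Krt16, at 186 and 184 CPM, where the other 5 libraries held 0.791 to 28.4 CPM and 11.6 to 31.2 CPM.

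**Figure D4:**
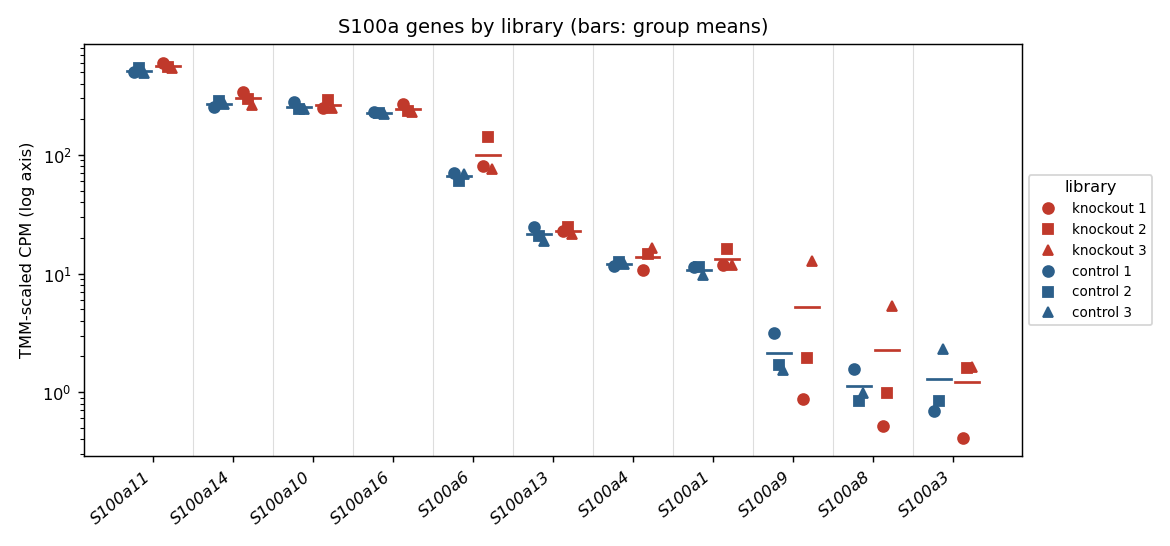
TMM-scaled CPM of the 11 S100a genes past the count minimum on a log axis, with a point for each library and a bar at each group mean. S100a8 and S100a9 are highest in knockout 3, and S100a1, S100a6 and S100a11 show no overlap between the groups.

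Other genes of the barrier were read from lists chosen by function. Among 6 tested neighbours in the complex outside the symbol rule, 5 of 6 had a log2 ratio above 0 and 0 passed edgeR. S100a7a, a psoriasin-related gene, was separated at 7.27, 5.21 and 4.27 against 2.87, 2.44 and 2.97 CPM (log2 ratio 1.02 ± 0.23, edgeR adjusted p = 0.239), and DESeq2 called it higher (adjusted p = 0.0301). Pglyrp3, a peptidoglycan recognition protein gene, and Kprp, a keratinocyte proline-rich protein gene, stood at 0.65 ± 0.29 and 0.37 ± 0.29 (edgeR adjusted p = 0.675 and 0.821), and at 0.34 and 0.083 without knockout 1. Kprp was 0.19 without control 3 and 0.64 without control 1. S100a7a, named for its small p, was the 1 of 6 neighbours separated upward, against 7.02% of all genes. Of the cross-linking and processing enzymes 9 of 13 were above 0 and 0 passed, with a median of 0.20 that was -0.064 without knockout 1 and control 1. Tgm1, a transglutaminase of the envelope, stood at 188, 78.4 and 73.2 against 81.1, 68.6 and 63.6 CPM (log2 ratio 0.67 ± 0.39, edgeR adjusted p = 0.747), and at 0.092 without knockout 1. The protease inhibitor gene Cst6 stood at 0.20 ± 0.092 and Padi1, which encodes a citrullinating enzyme, at -0.87 ± 0.38 (edgeR adjusted p = 0.685 and 0.676), with Cst6 at 0.12 without knockout 1.

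Barrier lipid genes were above 0 in 12 of 14 cases and 0 passed, with a median of 0.41 that was 0.056 without knockout 1 and control 1. Alox12b, a lipoxygenase of the lipid envelope, stood at 464, 183 and 168 against 182, 146 and 131 CPM (log2 ratio 0.83 ± 0.42, edgeR adjusted p = 0.718). Pnpla1 and Cers3, which act in ceramide synthesis, stood at 0.57 ± 0.36 and 0.53 ± 0.34 (edgeR adjusted p = 0.772 and 0.780). Knockout 1 was the highest library for these 3 genes, and without it their log2 ratios were 0.20, 0.042 and 0.022.

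Suprabasal keratin and junction genes were above 0 in 13 of 15 cases and 0 passed, with a median of 0.30 that was 0.041 without knockout 1 and control 1. Krt78, a suprabasal keratin, stood at 87.5, 70.9 and 63.5 against 44.8, 60.8 and 52.3 CPM without overlap (log2 ratio 0.49 ± 0.15, edgeR adjusted p = 0.475). Ppl, the gene of periplakin, stood at 721, 500.3 and 429 against 357, 407 and 386 CPM, also without overlap (log2 ratio 0.52 ± 0.19, edgeR adjusted p = 0.577), and Evpl, the gene of envoplakin, at 0.30 ± 0.17 (edgeR adjusted p = 0.730). Without knockout 1, Ppl and Evpl stood at 0.28 and 0.20, and Evpl at 0.14 without control 1. Krt78 and Ppl, named for their small p, were the 2 of 15 genes separated upward, against 7.02% of all genes. Krt77 and Krt80, keratin genes named after their values were seen, were like Hrnr highest in knockout 1 and then in control 1. Krt77 stood at 1072, 69.3 and 27.8 against 183, 21.8 and 14.3 CPM (log2 ratio 2.42 ± 1.74, edgeR adjusted p = 0.807), and Krt80 at 597, 213 and 147 against 247, 118 and 111 CPM (log2 ratio 1.01 ± 0.63, edgeR adjusted p = 0.772). Without knockout 1 they stood at -0.59 and 0.18.

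Stress keratins and cytokines were above 0 in 4 of 5 tested cases and 0 passed edgeR. Krt6a, a keratin gene of wounded epidermis, stood at 153, 161 and 136 CPM in the knockout series and 55.3, 30.5 and 2.52 CPM in the control series, without overlap (log2 ratio 2.35 ± 0.92, edgeR adjusted p = 0.668). Krt6b was called higher by DESeq2 (adjusted p = 0.0241) and not by edgeR (log2 ratio 5.16 ± 1.68, edgeR adjusted p = 0.558), and Krt16 stood at 2.15 ± 0.94 (edgeR adjusted p = 0.685). Without knockout 3 these 2 genes stood at 2.95 and 0.61. Krt6a, named for its small p, was the 1 of 5 genes separated upward, against 7.02% of all genes.

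Regulators of epidermal differentiation were above 0 in 18 of 21 cases and 0 passed edgeR, and the median turned from 0.12 to -0.10 without knockout 1 and control 1. Junb, which encodes an AP-1 subunit, was separated at 79.9, 70.7 and 65.5 against 46.9, 49.6 and 56.1 CPM (log2 ratio 0.50 ± 0.10, edgeR adjusted p = 0.168), and DESeq2 called it higher (adjusted p = 0.00726). Elf3, an epithelial ETS factor gene, was separated at 8.14, 12.4 and 6.04 against 3.35, 4.21 and 5.43 CPM (log2 ratio 1.03 ± 0.30, edgeR adjusted p = 0.432). Its log2 ratio was 0.71 without knockout 2. Hopx, a homeodomain-only gene, was separated at 131, 103 and 85.7 against 56.7, 74.9 and 82.9 CPM (log2 ratio 0.58 ± 0.19, edgeR adjusted p = 0.544). Junb, Elf3 and Hopx were named for their small p, and were the 3 of 21 regulators separated upward, against 7.02% of all genes. Among S100 partner and receptor genes 5 of 6 were above 0 and 0 passed. Ahnak and Anxa1, whose products bind S100 proteins, were separated at 0.24 ± 0.073 and 0.49 ± 0.15, and Cacybp stood at -0.11 ± 0.064 (edgeR adjusted p = 0.447, 0.489 and 0.745), with Anxa1 at 0.32 without knockout 2. These genes too were named for their small p, and 3 of the 6 on that list were separated upward, against 7.02% of all genes. Basal keratinocyte genes had a median of 0.044 over 8 genes and hair follicle genes one of -0.41 over 11, with 0 called in either.

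**Figure D5:**
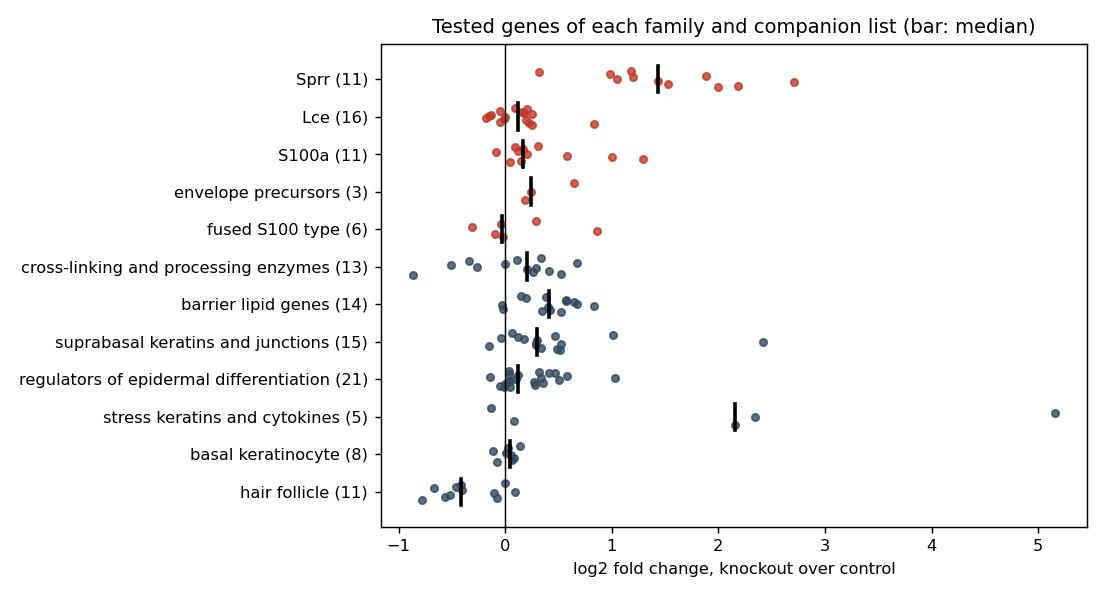
Log2 fold change of knockout over control for the members of each family and the tested genes of 7 companion lists, with a point for each gene and a bar at the median. The Sprr family has a median of 1.43 and the 5 stress keratins and cytokines one of 2.15, while that of basal keratinocyte genes is 0.044.

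The count minimum left out 10 members. Sprr2b was just inside it, with 10 or more counts in exactly 3 libraries, at 7.06, 32.7 and 52.9 counts in the knockout series and 2.33, 7.21 and 15.6 in the control series. Lce3e was just outside, at 29.6, 4.77 and 8.55 against 12.7, 9.36 and 9.52 counts, and Sprr2e too, at 0, 14.8 and 30.3 against 1.05, 6.41 and 6.83 counts. After rounding, Lce3e reached the filter of the test (log2 ratio 0.48 ± 0.66, edgeR adjusted p = 0.898), but it is not counted among the 47. Sprr2f was listed at 0 in knockout 1 and all 3 control libraries and had 3.48 and 12.6 counts in knockout 2 and 3. The other 6, S100a2, S100a5, Sprr4, Lce3a, Lce3d and Tchhl1, had at most 8.48 counts in any library.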

How the data were processed

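Oligo(dT)-purified RNA of skin was sequenced from 3 knockout and 3 control libraries. The deposited values are, per the file headers, read counts per gene; they are estimated counts, since 31.0 to 31.9% of genes in a library lay more than 0.001 away from whole numbers. Per the submitters' processing notes the authors used HISAT2 (2.0.4), Bowtie2 (2.2.5), RSEM (1.2.12) and GRCm38.p6, in roles that are not stated; the strand setting was not given there. The authors' estimated counts were whole in every library for 29 members, Sprr1a, Sprr1b, Sprr3 and Sprr2k among them, and not for the other 28. Of these, all but Ivl and Sprr2h share 50-base windows with another member.

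Counts were rounded, filtered with filterByExpr (minimum count 10), scaled by TMM and tested with the robust quasi-likelihood test of edgeR 4.0.16 under R 4.3.3, in a model of genotype alone, and Benjamini-Hochberg adjustment over 15035 genes at a threshold of 0.05. The SE is the absolute log2 fold change over the square root of F. Levels are TMM-scaled CPM of unrounded counts, and list scores are mean log2 CPM (prior count 2). Exon lengths came from GENCODE vM21 and coordinates from RefSeq, where 57 of 57 members matched. A count of 3 corresponded to 0.147 to 0.155 CPM, which covers counting error only. On simulated data for knockout against control over 15035 genes, the test recovered 35.8% of 1.5-fold, 76.1% of 2-fold and 97.0% of 4-fold changes. It also called 11 unchanged genes. The changed genes were drawn at random from all genes tested. The rates therefore do not hold for members with a large SE, such as Sprr1a at 1.99 ± 0.93.

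Named were Tie1, the single-copy members, up to 5 Lce, Sprr and S100a genes each by smallest p and by highest level, and 3 genes by smallest p from each pathway list; others are marked as named after their values were seen, and members outside the count minimum are named to account for them. The members and lists were chosen with earlier results of these data known. Alternatives were RLE and upper-quartile scaling, other count filters, DESeq2 1.42.0, voom of limma 3.58.1, edgeR without robust fitting, a replicate block, the hair follicle score as a covariate, leaving out libraries, and, chosen after seeing the data, the posterior Hox score. Further cell type lists had median log2 ratios of 0.30 (macrophage), -0.036 (fibroblast), -1.85 (adipocyte, with Plin1 called lower), 0.027 (Schwann cell), -0.25 (melanocyte), -0.17 (endothelial), -0.039 (skeletal muscle), -0.098 (neutrophil) and 0.40 (posterior Hox).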

Additional observations from a re-analysis of the deposited data

How the results depend on the processing

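Over 17 alternatives, the direction held in all of them for 41 of 58 named genes. The number of genes called was 24 in the reported fit, 38 with no count filter, 210 with DESeq2, 15 with limma-voom, 52 with the replicate block, 115 with the hair follicle score, 139 without both knockout 1 and control 1, 5 with the posterior Hox score and 1 to 11 with 1 library left out. Members called higher were 0 in the reported fit, 2 with the replicate block, 6 with the hair follicle score and 1 without both libraries; the others gave 0, and none called a member lower. Whether the replicate numbers pair the libraries was left unsettled: deviations from the group means correlated at 0.411, 0.0431 and 0.266 for numbers 1, 2 and 3. The libraries numbered 1 and 3 correlated best with their own number. Knockout 2 correlated best with control 3 (0.184) and control 2 with knockout 3 (0.115). The members called under the replicate block, against 0.219% of genes higher and 0.126% lower, were Sprr3 (2.15, edgeR adjusted p = 0.0230) and Sprr1a (1.93, edgeR adjusted p = 0.0245).

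With 1 library left out the Sprr median ran from 1.05 to 1.52. With the posterior Hox score the medians moved to -0.27 for Lce and 0.22 for fused S100 type genes, and Lce1a1, Lce1a2, Lce1c and S100a10 turned to -0.050, -0.035, -0.11 and -0.10. Without both knockout 1 and control 1, Ivl, Lce1e, Lce1f, Flg2 and Rptn turned to -0.046, 0.0088, 0.042, 0.26 and 0.0086. Tchh turned to 0.063 with limma-voom, 0.044 with the replicate block, 0.13 with the hair follicle score and 0.94 with the posterior Hox score. With 1 library left out, the log2 ratios that changed sign ran from -0.27 to 0.90 for Sprr2a2, -0.100 to 0.42 for Ivl, -0.0066 to 0.44 for Lce1a1, -0.059 to 0.34 for Lce1a2, -0.091 to 0.77 for Crnn, -0.23 to 0.18 for Flg2 and -0.58 to 0.10 for Flg. They ran from -0.12 to 1.46 for Hrnr, -0.33 to 0.27 for Rptn, -0.32 to 0.41 for Tchh, -0.032 to 0.11 for S100a10, -0.58 to 1.47 for S100a8, -0.59 to 1.79 for S100a9 and -0.59 to 4.43 for Krt77. The cause was not tested. Of the 10 members that missed the count minimum, 9 did not reach the test's filter on low counts.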
